A study of Homo sapiens with 7 samples.

Results

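GRASLND, also named RNF144A-AS1, is a long non-coding RNA transcribed antisense to the gene RNF144A, and RNF144A has a paralog, RNF144B. These 3 genes were taken by name, and all 3 were among the 21305 genes of the deposited table and among the 15420 that passed the minimum on low values. They were followed in 501Mel, an established human melanoma line of melanocytic type, in which a short hairpin RNA from a lentiviral, Tet-controlled vector was switched on with doxycycline. All groups were dox-induced and all were stable puromycin-selected pools, not clones, with the hairpin shlacZ as control (3 libraries) or 1 of the hairpins sh4 (2 libraries) and sh8 (2 libraries), both directed against GRASLND. An uninduced group was not analysed here, so the values do not speak to doxycycline itself. Nothing in the labels says that replicates of a group came from separate cultures, so p-values measure only the spread between these libraries. The comparisons of sh4 and of sh8 with the control share the same 3 control libraries.

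RNF144A and RNF144B encode RING-between-RING (RBR) E3 ubiquitin ligases. Such a ligase takes ubiquitin from a ubiquitin-conjugating enzyme (E2) onto a cysteine of its own and passes it on to a substrate protein. Both are anchored in membranes by a C-terminal segment, and both have been described as genes that p53 can induce, with DNA-dependent protein kinase among the substrates of RNF144A and the apoptosis protein BAX among those of RNF144B. GRASLND was first described in cartilage formation from mesenchymal stem cells, where it was linked to weaker interferon signalling through the RNA-activated kinase PKR.

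On the human genome build hg38, GRASLND (ENSG00000228203) lies on the minus strand at chr2:6911754-6918734, with 26 annotated transcripts in GENCODE release 44 and 5 exons in the canonical one. RNF144A (ENSG00000151692) lies on the plus strand at chr2:6917412-7068286, with 7 transcripts, 9 exons in the canonical one and a coding sequence of 292 codons. The 2 genes point away from overlapping 5′ ends. The canonical starts were 1297 bases apart, and the gene spans shared 1323 bases, which is 19.0% of the GRASLND span and 0.877% of the RNF144A span. Of the 26 GRASLND transcripts, 24 started beyond the RNF144A start. Whether each of them ran on across that start was not checked. The exons of the 2 genes nevertheless shared 0 bases, and their exon sequences shared 0 runs of 31 bases on either strand. Reads from unspliced RNA of the shared span were not separated here. RNF144B (ENSG00000137393) lies on another chromosome, at chr6:18387350-18468870 on the plus strand, with 2 transcripts, 8 exons in the canonical one and a coding sequence of 303 codons. The coding sequences of the paralogs were identical at 566 of 858 aligned bases (66.0%), and their exons also shared 0 runs of 31 bases.

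The 5′ windows of the paralogs (250 bases before to 50 after the start, hg38, 5′ to 3′ on the strand of the gene) are shown because the RNF144A window lies where GRASLND overlaps it and the paralogs can be compared there. Capitals mark matches, on either strand, to the motifs searched. Both windows are those of RefSeq.
RNF144A, plus strand, chr2:6917162-6917461: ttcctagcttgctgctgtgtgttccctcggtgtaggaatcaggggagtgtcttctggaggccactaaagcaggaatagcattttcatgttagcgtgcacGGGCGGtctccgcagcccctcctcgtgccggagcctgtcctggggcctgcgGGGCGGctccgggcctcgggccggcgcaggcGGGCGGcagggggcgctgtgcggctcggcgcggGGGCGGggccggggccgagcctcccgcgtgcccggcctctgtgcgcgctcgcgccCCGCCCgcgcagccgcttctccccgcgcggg
RNF144B, plus strand, chr6:18387100-18387399: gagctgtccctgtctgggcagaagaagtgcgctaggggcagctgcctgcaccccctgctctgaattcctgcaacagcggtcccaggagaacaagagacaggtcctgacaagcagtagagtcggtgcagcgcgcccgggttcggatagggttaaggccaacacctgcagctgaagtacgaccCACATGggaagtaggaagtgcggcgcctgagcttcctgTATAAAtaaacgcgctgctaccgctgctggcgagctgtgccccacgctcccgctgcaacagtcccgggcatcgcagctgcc

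The windows differed in base composition. The RNF144A window had a GC content of 74.0% and 37 CpG dinucleotides, and the RNF144B window 61.7% and 18, while the median over 35116 RefSeq promoter windows of this length was 58.7% and 14.0. All 300 bases of the RNF144A window lay inside the GRASLND gene, and 175 of them in GRASLND exons. Both strands were searched for 8 motifs. The E-box was searched as CACGTG, and in a second form as CATGTG. The TATA box was searched as TATAAA, the GC box, bound by SP1, as GGGCGG, and the CCAAT box by its own letters. The AP-1 site was searched as TGAGTCA, the core of the cyclic AMP element as TGACG, and the STAT site as TTCNNNGAA. The RNF144A window held 5 matches to GGGCGG, a motif found in 45.0% of all promoter windows. The RNF144B window held 1 match to CATGTG, read as its reverse complement at -69 from the start, and 1 match to TATAAA at -31, motifs found in 11.1% and 11.5% of all windows. A second RNF144A window in RefSeq, at chr2:6932834-6933133, had a GC content of 42.0% and 1 match to CATGTG. A match or its absence describes these letters only.

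The first question was whether the hairpins lowered their target. GRASLND was lower in every knockdown library than in every control library, and the fall was past the test for both hairpins together and for sh4 alone. The normalized count (the reads of a gene, scaled by a factor set for each library) of GRASLND was 309, 330 and 290 with shlacZ, 175 and 131 with sh4, and 227 and 163 with sh8. The first sh8 library lay nearest to the control, and the second sh8 library lay between the sh4 libraries, so the ranges of sh4 and sh8 overlapped. These values rested on 155 to 333 reads per library.

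GRASLND averaged 309 ± 20.1 (SD, n = 3) with shlacZ, 153 ± 30.9 (SD, n = 2) with sh4 and 195 ± 45.1 (SD, n = 2) with sh8, so that sh4 lay 50.5% and sh8 37.0% below the control. In limma, with p-values adjusted over all genes tested, both hairpins together gave a log2 fold change of -0.85 (SE 0.19, 95% interval -1.29 to -0.42, adjusted p 0.0402). Over all genes, 711 of 15420 (4.61%) passed at an adjusted p under 0.05 in this comparison, and 1.99% also had an absolute log2 fold change over 1, a size GRASLND did not reach. With sh4 alone the log2 fold change was -1.02 (SE 0.21, adjusted p 0.00662), in a comparison where 22.5% of all genes passed and 8.16% also exceeded a log2 fold change of 1 in size. With sh8 alone it was -0.68 (SE 0.21, 95% interval -1.14 to -0.22, adjusted p 0.110), which was not past the test, in a comparison where 2.92% of all genes passed. The difference between sh4 and sh8 was -0.34 (95% interval -0.84 to 0.16, adjusted p 0.421), where 7.0% of all genes passed. An exact permutation test of GRASLND over the 35 possible assignments of libraries gave p = 0.0571 (two-sided), which is the smallest value this test can give.

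The pooled call was close to the threshold. It was held without the first sh8 library (log2 fold change -0.99, adjusted p 0.0171) and was lost on leaving out any other library, with values from -0.73 to -0.90 and adjusted p from 0.0636 to 0.182. The sh4 call was lost without the second sh4 library (-0.82, adjusted p 0.0772). The sh8 value ran from -0.44 (adjusted p 0.504), without the second sh8 library, to -0.92 (adjusted p 0.157), without the first.

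RNF144A, the sense gene at the same locus, differed between the hairpins. It was lower with sh4 than in the control, and with sh8 it stood at the control level. Its normalized count was 3626, 3276 and 3192 with shlacZ, 2556 and 2075 with sh4, and 3455 and 3503 with sh8. Both sh4 libraries lay below every other library, whereas both sh8 libraries lay inside the control range. RNF144A averaged 3365 ± 230 (SD, n = 3) with shlacZ, 2315 ± 340 (SD, n = 2) with sh4 and 3479 ± 34.0 (SD, n = 2) with sh8.

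For sh4 this was 31.2% below the control, with a log2 fold change of -0.54 (SE 0.12, 95% interval -0.82 to -0.27, adjusted p 0.0123). With sh8 the level was 103% of the control and the log2 fold change 0.05 (SE 0.12, 95% interval -0.23 to 0.33, adjusted p 0.871). The difference between the hairpins was itself past the test, at -0.59 (SE 0.14, 95% interval -0.90 to -0.29, adjusted p 0.0295). Pooled over both hairpins the change was -0.25 (95% interval -0.65 to 0.16, adjusted p 0.439), and the exact permutation test gave p = 0.457. Leaving out the second sh4 library took away the sh4 call (-0.39, adjusted p 0.117) and the difference between hairpins (-0.44, adjusted p 0.218). That difference was also not past the test without the third shlacZ library (-0.59, adjusted p 0.0513), without the first sh8 library (-0.60, adjusted p 0.153) or without the second (-0.59, adjusted p 0.139).

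Melanocytic genes also separated the hairpins, and a lower level of these RNAs cannot be told apart from fewer cells that carry them in bulk RNA. The summed normalized count of 8 melanocytic markers (MITF, SOX10, PMEL, MLANA, TYR, TYRP1, DCT and S100B) was 135855 to 146631 with shlacZ, 52282 to 60068 with sh4 and 101817 to 104837 with sh8. These markers were thus present in all 7 libraries. Of the 8, 6 were lower and 0 higher with sh4 past the test (against 22.5% of all genes), and 0 passed with sh8, in limma and in limma-voom (against 2.92% of all genes). With sh8, 5 were under an unadjusted p of 0.05. The same number, 6 of 8, were lower with sh4 than with sh8, where 7.0% of all genes passed. The part of this shift in the RNF144A value was not tested. The lineage factor MITF was 22076, 20552 and 17326 with shlacZ, 12619 and 11635 with sh4, and 19031 and 17418 with sh8. Both sh4 libraries were the lowest and the sh8 libraries lay within the control range, as for RNF144A. The other 5 markers called with sh4 (SOX10, PMEL, MLANA, TYRP1 and DCT) differed from RNF144A in this, since both sh8 libraries also lay below all control libraries. DCT, a melanin synthesis enzyme, was 16036, 11423 and 9970 with shlacZ, 1704 and 893 with sh4, and 6405 and 5805 with sh8. TYR and S100B went the other way, at 111% and 137% of the control with sh4 and 117% and 115% with sh8. Neither was past the test.

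RNF144B, the paralog, showed no difference past the test. Its normalized count was 1070, 1406 and 1217 with shlacZ, 894 and 1086 with sh4, and 1156 and 921 with sh8. The lowest control library lay under the higher library of each hairpin, so the groups overlapped. RNF144B averaged 1231 ± 168 (SD, n = 3) with shlacZ, 990 ± 135 (SD, n = 2) with sh4 and 1038 ± 166 (SD, n = 2) with sh8.

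The log2 fold change of RNF144B was -0.31 with sh4 (95% interval -0.67 to 0.05, adjusted p 0.199) and -0.25 with sh8 (95% interval -0.61 to 0.12, adjusted p 0.463). The difference between the hairpins was -0.07 (95% interval -0.46 to 0.33, adjusted p 0.873), and its sign turned with the scaling and with the libraries used. Pooled, the change was -0.28 (95% interval -0.60 to 0.04, adjusted p 0.265, exact permutation p = 0.171). The intervals for sh4 and sh8 both include a fall of the size measured for RNF144A with sh4 (-0.54).

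**Figure D1:**
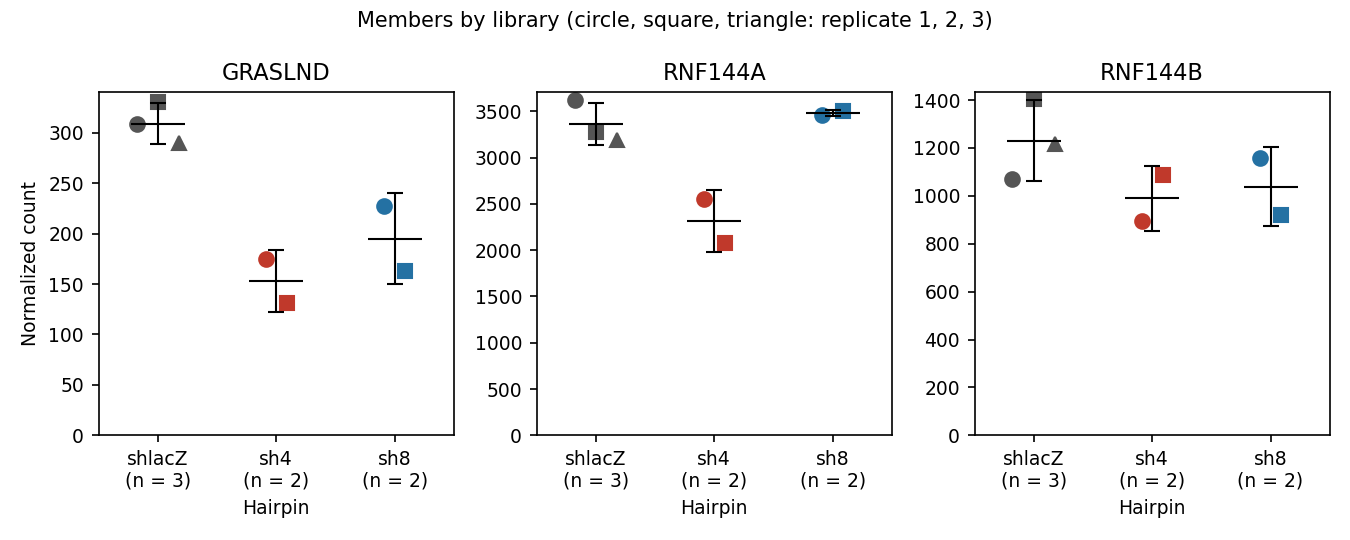
Normalized count of GRASLND, RNF144A and RNF144B (vertical axes, from 0) by hairpin, with 1 symbol per library and a black bar and whiskers for mean ± SD (n = 3, 2 and 2). GRASLND was lower in all 4 knockdown libraries than in the 3 control libraries, RNF144A was low in both sh4 libraries only, and the RNF144B groups overlapped.

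Levels of different genes were compared per kb of annotated exon. In the control, the normalized count per kb was 52.5 ± 3.41 for GRASLND, 522 ± 35.7 for RNF144A and 238 ± 32.5 for RNF144B (SD, n = 3). The order RNF144A, RNF144B, GRASLND held in all 7 libraries, with no overlap between neighbours. GRASLND stood at percentile 83.7 of 2569 lncRNA genes tested, and RNF144A and RNF144B at percentiles 90.9 and 76.6 of 11908 protein-coding genes. The lncRNA was thus among the more abundant of its class, and was still scarce beside the gene it overlaps. These levels, and shares built on them, depend on the length used, which was all annotated exon bases. That was 5898 bases for GRASLND and 6450 for RNF144A, against 3048 and 5720 in their canonical transcripts. Levels per canonical transcript were not computed.

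As a share of RNF144A per kb, GRASLND was 9.31%, 11% and 9.93% with shlacZ, 7.49% and 6.92% with sh4, and 7.18% and 5.09% with sh8. Every knockdown library had a lower share than every control library. It averaged 10.1% ± 0.863 (SD, n = 3) with shlacZ, 7.21% ± 0.401 (SD, n = 2) with sh4 and 6.13% ± 1.48 (SD, n = 2) with sh8. The hairpins ranked in the opposite order to the GRASLND level itself, since RNF144A fell with sh4 and not with sh8, but their means differed by less than the SD of sh8. The ratio of RNF144A to RNF144B per kb ran from 1.87 to 2.72 with shlacZ, from 1.53 to 2.29 with sh4 and from 2.40 to 3.05 with sh8. The range of each hairpin overlapped that of the control, while the sh4 and sh8 ranges did not overlap each other. This difference was not tested.

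Antisense RNAs named after a sense gene gave a frame for the locus. In 329 tested pairs, the median antisense share of the sense level per kb in the control was 10.7%, close to the 10.1% of GRASLND, and 160 pairs were at or below it. With sh4, 47 of the 329 antisense RNAs passed in either direction, where 22.5% of all genes did. Of these 47, 18 were lower, GRASLND among them. In 3 of these 18 pairs the sense gene was lower past the test as well, RNF144A among them. In all, 90 of the 329 sense genes passed with sh4 in either direction. The lower ones among these were not separated. The 3 of 18 thus has no matching share beside it and says nothing about these pairs. With both hairpins together, 2 antisense RNAs were lower past the test and 0 of their sense genes passed, with limma. In that comparison 4.61% of all genes passed in either direction. With sh8, where 2.92% of all genes passed in either direction, 1 antisense RNA was lower past the test, which was not GRASLND.

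**Figure D2:**
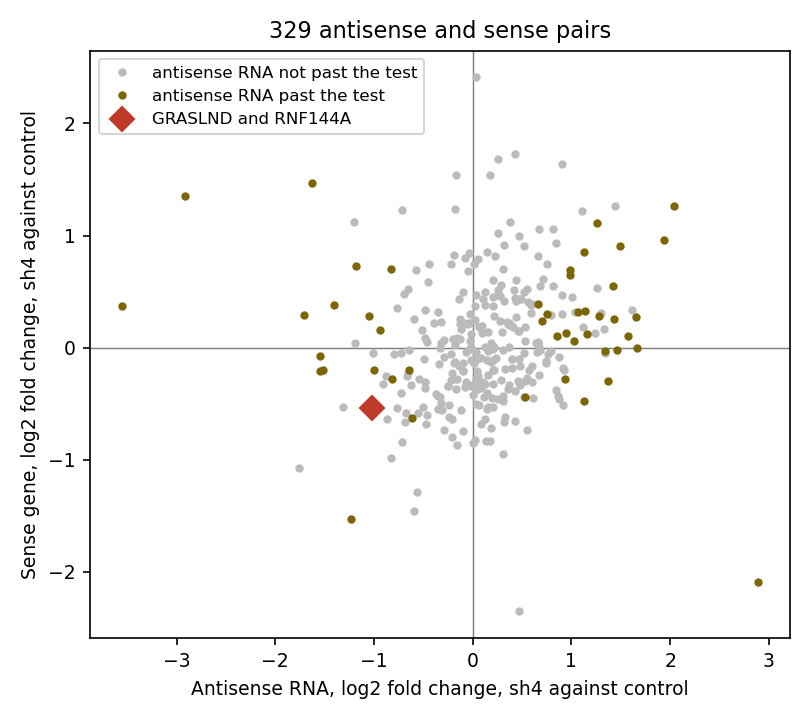
log2 fold change with sh4 against the control of 329 antisense RNAs (horizontal axis) and of their sense genes (vertical axis), with 1 point per pair. The diamond marks GRASLND at -1.02 and RNF144A at -0.54, among pairs spread over all 4 quadrants.

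The next question was how the wider ligase family stood. All 14 RBR ligases of the list were tested, and RNF144A was the only 1 past the test in any comparison. It was lower with sh4 (1 of 14, 7.14%, against 22.5% of all genes) and lower with sh4 than with sh8 (1 of 14, against 7.0% of all genes). Both hairpins together and sh8 alone gave 0 of 14 in limma, with 2 and 1 under an unadjusted p of 0.05. In these comparisons limma-voom also gave 0 of 14, and in limma 4.61% and 2.92% of all genes passed. The median log2 fold change of the family was 0.07 for both hairpins, 0.08 with sh4 and 0.02 with sh8, beside a median of -0.01 over all genes in each.

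Knockdown libraries did not overlap the control libraries for 3 RBR ligases, which did not include RNF144A or RNF144B. The share of all genes without such overlap was not computed, so this count says nothing about the family. None of these ligases was past the test for both hairpins together, where 4.61% of all genes passed. RNF14, first described as a cofactor of the androgen receptor, was 1085, 1176 and 1209 with shlacZ, 797 and 1031 with sh4, and 916 and 1032 with sh8 (pooled log2 fold change -0.30, adjusted p 0.193). RNF19B, a ligase known from natural killer cells, was 672, 833 and 602 with shlacZ, 562 and 563 with sh4, and 500 and 450 with sh8 (pooled log2 fold change -0.43, adjusted p 0.124). RNF216, a ligase known for acting on Toll-like receptor signalling, was 1820, 2018 and 1908 with shlacZ, 2189 and 2128 with sh4, and 2251 and 2076 with sh8 (pooled log2 fold change 0.17, adjusted p 0.328).

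The linear ubiquitin ligase complex, built on RNF31 and its partner RBCK1, had pooled log2 fold changes of -0.13 (adjusted p 0.578) and 0.27 (adjusted p 0.219). The ligases that work with cullins, ARIH1 and ARIH2, gave 0.06 and -0.12, and CUL9, itself a cullin that binds p53, gave 0.07. RNF217 gave 0.21 (adjusted p 0.473), ANKIB1 0.10 (adjusted p 0.610) and RNF19A 0.08 (adjusted p 0.719). Per kb, RNF144A at 522 was above every other family member named here in the control, where RNF19B had 257 ± 43.3, RNF216 253 ± 13.2 and RNF144B 238 ± 32.5, 3 levels within each other's spread.

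**Figure D3:**
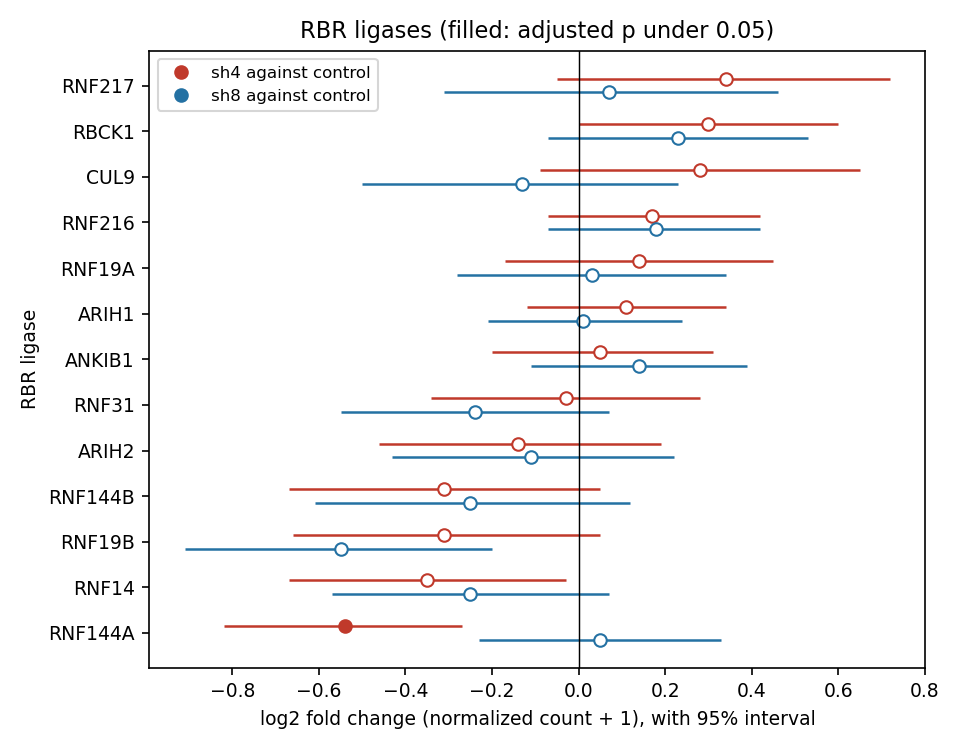
log2 fold change of 13 of the 14 RBR ligases against the control (horizontal axis) with 95% intervals, for sh4 and sh8. RNF144A with sh4 (-0.54) is the only filled point, that is, the only value past an adjusted p of 0.05, while RNF144A with sh8 lies at 0.05.

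The E2 enzymes that can charge these ligases showed no change past the test. Over all genes, 4.61% passed for both hairpins, 22.5% with sh4, 2.92% with sh8 and 7.0% between the hairpins. Of the 9 E2 genes listed, 8 were tested, and 0 passed in any of the 4 comparisons, by limma or limma-voom. Under an unadjusted p of 0.05 there were 0 for both hairpins, 1 with sh4, 0 with sh8 and 2 between the hairpins. UBE2L6 was not analysed here. The median log2 fold change was -0.07 for both hairpins, -0.16 with sh4 and -0.07 with sh8, beside -0.01 over all genes in each.

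Among genes whose proteins have been described as substrates of RNF144A or RNF144B, 8 of the 12 listed were tested. RNA levels do not measure the protein turnover these ligases carry out. For both hairpins 1 of 8 passed (12.5%, against 4.61% of all genes), with sh4 3 of 8 (37.5%, against 22.5%) and with sh8 1 of 8 (12.5%, against 2.92%). Between the hairpins 0 of 8 passed in limma and in limma-voom (against 7.0% of all genes), with 2 under an unadjusted p of 0.05. STING1, the adaptor of cytosolic DNA sensing, was higher in all 3 comparisons with the control. PRKDC and PARP1 were lower with sh4. EGFR, CDKN1A and TP63 were not analysed here, and HSPA2 lay under the minimum mean.

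STING1 had a normalized count of 15.5, 22.0 and 18.3 with shlacZ, 61.0 and 73.9 with sh4, and 52.7 and 51.0 with sh8. All knockdown libraries lay above all control libraries, at low counts. The log2 fold change was 1.63 for both hairpins (SE 0.27, adjusted p 0.0155), 1.81 with sh4 (adjusted p 0.00275) and 1.45 with sh8 (adjusted p 0.0343). The pooled call was lost without the second shlacZ library (1.75, adjusted p 0.0574) or the third (1.62, adjusted p 0.0632). The sh8 call was held in 1 of the 7 fits that left out a library, with values from 1.33 to 1.57 and adjusted p up to 0.205, and was not past the test in limma-voom (1.43, adjusted p 0.0544).

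PRKDC, the catalytic subunit of DNA-dependent protein kinase, was 25913, 27814 and 26636 with shlacZ, 17111 and 18697 with sh4, and 21933 and 23132 with sh8. It was lower with sh4 by a log2 fold change of -0.58 (SE 0.12, adjusted p 0.00629), a call lost without the first sh4 library (-0.52, adjusted p 0.0672), and with sh8 it was -0.25 (adjusted p 0.287). PARP1, which marks DNA breaks with poly(ADP-ribose), was 4474, 5215 and 5167 with shlacZ, 3494 and 3950 with sh4, and 4219 and 4219 with sh8. It was lower with sh4 at -0.41 (SE 0.12, adjusted p 0.0323), but 6 of the 7 fits without a library missed the threshold, with adjusted p up to 0.218. For both genes the sh8 libraries lay between the sh4 and the control libraries.

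Genes that p53 induces were examined because both ligases have been placed among them. Of 24 listed, 21 were tested. For both hairpins 0 passed in limma (against 4.61% of all genes) and in limma-voom, with 4 under an unadjusted p of 0.05. With sh4 2 were higher (9.52%, against 22.5% of all genes), the oxidoreductase gene TP53I3 and the RNA-binding protein gene ZMAT3. With sh8 1 was lower (4.76%, against 2.92% of all genes), the exonuclease gene AEN. Between the hairpins 4 of 21 (19.0%, against 7.0% of all genes) were past the test, each higher with sh4, namely MDM2, PMAIP1, ZMAT3 and TNFRSF10B. Whatever their p, 13 of the 21 had a positive change between the hairpins and 8 a negative one, down to -0.35. RNF144A was lower with sh4 than with sh8, and a link of this to p53 was not tested.

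MDM2, the ligase that degrades p53, was 2433, 2764 and 2529 with shlacZ, 3075 and 3850 with sh4, and 2184 and 1821 with sh8. The sh4 libraries lay above and the sh8 libraries below the control range, and the hairpins differed by 0.79 (SE 0.15, adjusted p 0.0143). PMAIP1, which encodes the apoptosis protein NOXA, differed by 1.69 (SE 0.36, adjusted p 0.0221) and ZMAT3 by 0.80 (SE 0.15, adjusted p 0.0147). Each of these 3 differences was lost without the second sh4 library (0.62, 1.24 and 0.62, adjusted p 0.139, 0.210 and 0.142), without the first sh8 library (0.92, 1.45 and 0.81, adjusted p 0.0527, 0.154 and 0.0945) and without the second sh8 library (0.66, 1.93 and 0.78, adjusted p 0.110, 0.0572 and 0.0865). TNFRSF10B, a death receptor gene, differed by 0.59 (adjusted p 0.0424) and was past the test in 1 of the 7 fits without a library, with values from 0.47 to 0.70 and adjusted p up to 0.262. In limma-voom it was not past the test (0.57, adjusted p 0.0822), which left 3 of 21.

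TP53I3 was 1.03, 9.43 and 6.96 with shlacZ, 31.6 and 38.8 with sh4, and 13.2 and 20.9 with sh8. All knockdown libraries lay above the control libraries, at low counts, and the sh4 log2 fold change of 2.71 (adjusted p 0.0184) was lost without the first sh4 library (2.85, adjusted p 0.0966) or the second (2.56, adjusted p 0.123). Its size depended on the lowest control library and on the pseudocount, at 1.98 (adjusted p 0.00748) without the first shlacZ library and 1.55 (adjusted p 0.00574) with a pseudocount of 10.

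ZMAT3 was 984, 898 and 839 with shlacZ, 1154 and 1467 with sh4, and 757 and 742 with sh8. Its sh4 log2 fold change of 0.52 (adjusted p 0.0247) was lost without the second shlacZ library (0.52, adjusted p 0.0667), the third (0.47, adjusted p 0.0903) or the second sh4 library (0.35, adjusted p 0.203). AEN was 944, 1319 and 1241 with shlacZ, 910 and 1006 with sh4, and 697 and 690 with sh8. With sh8 it gave -0.74 (adjusted p 0.0370), held in 1 of the 7 fits without a library (adjusted p up to 0.226) and not in limma-voom (-0.78, adjusted p 0.0692).

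The PKR and interferon gamma receptor path was examined because GRASLND has been placed on it. The labels of these libraries name no interferon gamma, under which the study reported the effect of GRASLND on this path. The study's evidence on PKR was on the protein, which these RNA values do not measure. All 11 listed genes were tested, among them PKR itself (EIF2AK2) and both receptor chains. For both hairpins 0 of 11 passed in limma (against 4.61% of all genes) and in limma-voom, with 2 under an unadjusted p of 0.05. With sh8 the counts were the same (against 2.92% of all genes in limma). With sh4 2 were higher (18.2%, against 22.5% of all genes), namely JAK1 and STAT2, and JAK1 was also higher with sh4 than with sh8.

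JAK1, a kinase of the interferon receptors, was 2635, 2843 and 3145 with shlacZ, 5335 and 5936 with sh4, and 3290 and 4226 with sh8. Both hairpins lay above the control range, and sh4 above sh8. The log2 fold change with sh4 was 0.97 (SE 0.14, adjusted p 0.00127), which held in all 7 fits without a library, and the sh8 value was 0.38 (adjusted p 0.183). The difference between hairpins of 0.59 (adjusted p 0.0458) was held in 1 of those 7 fits, with values from 0.41 to 0.77 and adjusted p up to 0.293, and was not past the test in limma-voom (0.58, adjusted p 0.0867). STAT2, a transcription factor of the type I interferon response, was 1641, 1201 and 1235 with shlacZ, 2328 and 1757 with sh4, and 1972 and 1887 with sh8. Its sh4 change of 0.59 (adjusted p 0.0322) held in 2 of the 7 fits without a library, with adjusted p up to 0.270, and the sh8 value was 0.52 (adjusted p 0.136).

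Genes around the 2 loci were also read. Within 1000 kb of the GRASLND start, 5 genes other than RNF144A were in the table and 1 was tested, the lncRNA LINC02973 at 342.2 kb. It gave a pooled log2 fold change of 0.74 (adjusted p 0.374) at 4.35 to 26.4 normalized counts. The other 4 lay under the minimum mean, so RNF144A was the only neighbour of GRASLND in this window with a high level.

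Around RNF144B, 10 genes were in the table and 8 were tested. For both hairpins 0 of 8 passed in limma (against 4.61% of all genes) and in limma-voom, with 2 under an unadjusted p of 0.05. With sh8 0 of 8 passed in limma (against 2.92% of all genes) and in limma-voom, with 1 under that p. With sh4 4 of 8 passed, where 22.5% of all genes did, and the start of each lay over 200 kb from the RNF144B start. KIF13A, a kinesin that moves melanosome cargo, was higher at 0.46 (adjusted p 0.0160), held in 3 of 7 fits without a library (adjusted p up to 0.0991). TPMT, which methylates thiopurine drugs, was lower at -0.52 (adjusted p 0.0199), held in 4 of 7 (adjusted p up to 0.142). KDM1B, a histone demethylase, was lower at -0.51 (adjusted p 0.0235), held in 5 of 7 (adjusted p up to 0.203).

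The fourth, the nuclear pore gene NUP153, lies beyond the 500 kb within which neighbours were named and is given because the count is small. It was lower at -0.46 (adjusted p 0.0304). DEK, a chromatin protein gene and the nearest tested neighbour of RNF144B at 122.8 kb, gave -0.26 (adjusted p 0.112). Only KIF13A differed between the hairpins among the 8, at 0.50 (adjusted p 0.0398), a call held in 1 of 7 fits without a library and lost in limma-voom (0.48, adjusted p 0.0644).

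**Figure D4:**
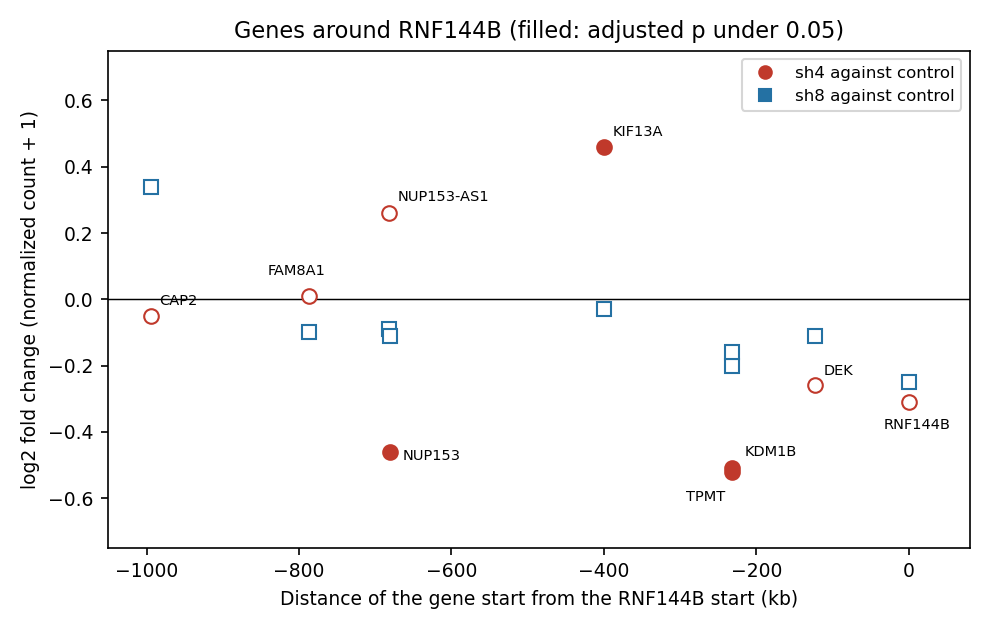
log2 fold change against the control of RNF144B and its 8 tested neighbours (vertical axis) by distance of the gene start from the RNF144B start in kb (horizontal axis), for sh4 (circles) and sh8 (squares). Filled symbols passed an adjusted p of 0.05; with sh4 these were KIF13A, TPMT, KDM1B and NUP153, and with sh8 there were 0.

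The genes whose log2 level followed each member most closely over the 7 libraries were picked as a description, from 11439 genes with a symbol and a mean of at least 50. The coefficients are the highest of that many genes over 7 libraries in 3 groups, and both sides of each share the same libraries and depth. For GRASLND they were PAXIP1 (Pearson r 0.990), a BRCT-domain protein gene of the DNA damage response, CHAF1B (0.983), a subunit of chromatin assembly factor 1, XRCC3 (0.981), a gene of homologous recombination, and SNHG17 (0.981), a small nucleolar RNA host gene. Each had its lowest level in the second sh4 library, as GRASLND did. The 2 with the most negative coefficients were PJA2 (-0.989), another ubiquitin ligase gene, and EXD2 (-0.986), an exonuclease gene.

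For RNF144A they were the lncRNA LINC01013 (0.997), the guanine nucleotide exchange factor gene FGD4 (0.995), the corepressor gene TLE1 (0.993) and the glycogenin gene GYG2 (0.993). LINC01013, for example, was 355, 272 and 272 with shlacZ, 134 and 71.6 with sh4, and 322 and 366 with sh8, so that it was low in both sh4 libraries only. The most negative were WDR41 (-0.993) and ZNF799 (-0.986). For RNF144B they were DDX52 (0.989), an RNA helicase gene of ribosome assembly, GAR1 (0.984), of the H/ACA small nucleolar particles, SNRPD1 (0.983), of the spliceosome core, and SAP18 (0.981), and the most negative were ZNF182 (-0.980) and PALM (-0.975).

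Among the members, the coefficient was 0.687 between GRASLND and RNF144A, 0.675 between GRASLND and RNF144B and 0.210 between the paralogs. Within groups, that is, after the group means were taken off, the same coefficients were 0.514, 0.210 and -0.700. Each hairpin enters these only through the difference between its 2 libraries, so they are a description with no p. None of the lists of closest genes held another member.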

How the data were processed

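RNA of 7 libraries was depleted of ribosomal RNA and sequenced as stranded read pairs. Per the methods of the study, the authors trimmed adapters with Cutadapt, aligned to hg38 with STAR, quantified genes with Salmon and passed the count matrix to DESeq2, and they deposited 1 table of counts divided by a size factor per library (normalized counts, written with decimal commas). Tool versions, the annotation release and whether quantification used strand are not given in the sources used here. This scaling would hide a change shared by most genes.

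Whole reads were recovered from the steps between values (100.0% whole within 0.1), and gave 13337317 to 22855232 reads per library. The table held 0 columns of other samples. Since the values are not raw counts, the test was limma 3.58.1 (R 4.3.3) with a variance trend on log2(normalized count + 1), which understates changes of low genes, for genes with a mean of at least 10. A gene passed at a Benjamini-Hochberg adjusted p under 0.05 over all 15420 genes tested. Both hairpins against the control were fitted with 2 levels, as in the study, and each hairpin and their difference in a fit with 3 groups. The exact permutation tests used scipy 1.17.1, and the fit was tested on simulated data.

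Alternatives were limma-voom on the recovered reads, other pseudocounts, minimum means and scalings, the replicate number as a block, a fit without the variance trend, the mean of both hairpins in the fit with 3 groups, and leaving out each library. Positions, exons and lengths came from GENCODE release 44 on hg38, and sequences from RefSeq. The values of 1 RBR ligase and the 5′ window of GRASLND are not reported here. The genes named were the members, all RBR ligases, list members past the test in any comparison, tested neighbours within 500 kb, and the 4 closest and 2 most opposed genes by correlation. The members and lists were chosen with earlier results of these data known. Of 9 markers of other cell types (CD3E, COL3A1, DCN, EPCAM, KRT14, KRT5, PECAM1, PTPRC and VWF), 0 were analysed here.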

Additional observations from a re-analysis of the deposited data

Results flagged for a closer look

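In 13 of 39 genes examined, the effect of sh4 and the effect of sh8 against the same control differed past the adjusted threshold in limma, where 7.0% of all genes did. The 39 include list genes that were named because they passed a test, so this share says nothing about the lists. RNF144A differed by -0.59 (sh4 minus sh8, log2). Of the p53 targets, MDM2 differed by 0.79, PMAIP1 by 1.69, ZMAT3 by 0.80 and TNFRSF10B by 0.59. In the interferon receptor path JAK1 differed by 0.59, and near RNF144B the gene KIF13A by 0.50. Of the melanocytic genes, MITF differed by -0.59, SOX10 by -0.81, PMEL by -0.71, MLANA by -1.01, TYRP1 by -1.54 and DCT by -2.30.

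In the 4 knockdown libraries of LINC02973, the first sh8 library (26.4 normalized counts, against 15.8, 16.4 and 16.4) stood apart, with a gap of 0.942 of the whole range, above Dixon's critical value for 4 samples. Of 39 genes examined in this way 1 stood apart, and chance gives about 1 in 20.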

How the results depend on the processing

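GRASLND for both hairpins was -0.85 (adjusted p 0.0805) without the variance trend, and -0.99 to -0.73 over the fits without a library. With sh4 alone those fits gave -1.23 to -0.82. RNF144A with sh4 was -0.54 (adjusted p 0.0512) without the trend and -0.69 to -0.39 without a library. Its difference between hairpins was -0.51 (adjusted p 0.0703) when scaled by the library total, -0.59 (adjusted p 0.102) without the trend, and -0.75 to -0.44 without a library. RNF144B between hairpins turned to 0.01 when scaled by the library total, to 0.07 without the first sh4 library and to 0.10 without the first sh8 library (range -0.23 to 0.10). The cause of these changes was not tested.

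Deviations of same-numbered libraries (first minus second replicate) correlated over genes at 0.31 between shlacZ and sh4. Between shlacZ and sh8, and between sh4 and sh8, the coefficient was 0.034. Whether replicate numbers pair the libraries was not tested. With the replicate number as a block, GRASLND for both hairpins was -0.90 (adjusted p 0.150), and 0 substrates passed for both hairpins, while PRKDC (adjusted p 0.00651) and STING1 (adjusted p 0.00491) still passed with sh4. The number of substrates past the test for both hairpins, 1 as reported, was also 0 with a mean of at least 50, which removes STING1, ranged from 0 to 1 without a library, and was 2 by the mean of both hairpins in the fit with 3 groups. That mean gave 3 p53 targets and 2 genes of the PKR path, where 0 were reported, and fits without a library gave 0 to 2 and 0 to 1. Of the other alternatives for the members and the counts, 283 left the result the same. For a member this meant the same direction and side of the threshold, and for a count an equal or similar number.

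Counting error limits STING1, TP53I3 and LINC02973, and 2 libraries per hairpin limit every difference between hairpins.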
